A study of Mus musculus with 9 samples.

Results

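Transcripts of 9 genes that carry or restrain the signal from phosphoinositide 3-kinase (PI3K) through the kinase AKT to mTOR complex 1 (mTORC1) were followed in splenic B cells before and after activation. The genes were Pik3cd, Pik3r1, Pik3ap1, Inpp5d, Akt1, Tsc1, Rheb, Mtor and Rptor, chosen by symbol, and all 9 were found among the 17596 genes of the deposited table. RNA sequencing was carried out on 9 libraries of primary B cells from Mb1Cre mice and from Mct1f/fMb1Cre mice (Mctf/fMb1Cre in the sample titles). Both genotypes carried Cre under the control of Mb1 (Cd79a), which is active in the B cell lineage, and only the Mct1f/fMb1Cre mice carried the floxed alleles of Mct1 (Slc16a1), a transporter of lactate and pyruvate. Untreated cells on day 0 gave 2 libraries per genotype. Cells cultured for 3 days with LPS at 10 μg/ml and IL-4 at 50 ng/ml gave 2 Mb1Cre and 3 Mct1f/fMb1Cre libraries. No library came from cells cultured without LPS and IL-4. Activation here means day 3 against day 0, in which stimulation and time in culture cannot be told apart. Mice were 6 to 8 weeks old by the methods. The number of mice behind a library and whether mice were pooled are not given in the sources used here, so p-values measure only the spread between libraries.

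PI3K of class I is a pair of a catalytic and a regulatory subunit that phosphorylates a membrane lipid to PIP3, and in B cells the catalytic subunit p110δ is the one best known for signalling from the antigen receptor. PIP3 brings AKT to the membrane, whereas the phosphatase SHIP-1 removes it. Active AKT keeps FOXO transcription factors out of the nucleus and inhibits the TSC complex, which frees the GTPase RHEB to switch on mTORC1, the kinase complex that drives protein synthesis and growth. Most of this control acts on proteins and lipids, and transcript levels do not measure it.

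Levels are given as fragments per kilobase of transcript, scaled to all mapped fragments of the library (FPKM), so genes can be compared with each other within a library. Fold changes are on the log2(FPKM + 1) scale and were tested with limma over the 10823 genes that averaged 1 FPKM or more. A gene counts as called where its adjusted p was below 0.05 and its log2 fold change passed 0.5 in either direction, the fold limit. The table holds no read counts, so the sequencing depth is unknown. FPKM summed to between 477079 and 491459 on day 0 and between 547355 and 563586 on day 3.

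Promoters are shown for the transcripts that fell most with activation (Pik3r1 and Inpp5d) and for 2 that were not called (Akt1 and Mtor). RefSeq gave 13 start sites for the 9 genes on GRCm38.p6, and the 250 bases before each start were searched on both strands for GTAAACA (a FOXO site), CACGTG (an E-box), CCGGAAGT (an ETS site), GAGGAAGT (a PU.1 site), ATGCAAAT (the octamer of B cell promoters), CCAAT (the CCAAT box), GGGCGG (a GC box) and TATAAA (the TATA box). The 4 sequences below run 5′ to 3′ toward the start, in lower case, with every match in capitals.
Pik3r1, start of the long transcript, chr13:101768218-101768467, minus strand: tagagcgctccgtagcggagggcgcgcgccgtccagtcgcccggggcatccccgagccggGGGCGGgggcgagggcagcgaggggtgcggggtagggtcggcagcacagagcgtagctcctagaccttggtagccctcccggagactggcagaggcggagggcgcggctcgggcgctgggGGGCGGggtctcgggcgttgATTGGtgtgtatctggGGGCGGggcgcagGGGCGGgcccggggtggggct
Inpp5d, chr1:87620062-87620311, plus strand: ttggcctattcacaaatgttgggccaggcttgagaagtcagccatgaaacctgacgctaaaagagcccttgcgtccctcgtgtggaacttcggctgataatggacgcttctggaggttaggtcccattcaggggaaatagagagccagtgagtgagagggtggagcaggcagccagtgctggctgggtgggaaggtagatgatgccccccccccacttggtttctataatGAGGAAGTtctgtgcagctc
Akt1, upstream start, chr12:112674885-112675134, minus strand: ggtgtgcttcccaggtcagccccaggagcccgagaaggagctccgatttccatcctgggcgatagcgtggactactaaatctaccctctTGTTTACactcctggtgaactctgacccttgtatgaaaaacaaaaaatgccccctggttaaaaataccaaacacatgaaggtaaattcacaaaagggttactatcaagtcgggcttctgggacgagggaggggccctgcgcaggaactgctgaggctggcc
Mtor, chr4:148448332-148448581, plus strand: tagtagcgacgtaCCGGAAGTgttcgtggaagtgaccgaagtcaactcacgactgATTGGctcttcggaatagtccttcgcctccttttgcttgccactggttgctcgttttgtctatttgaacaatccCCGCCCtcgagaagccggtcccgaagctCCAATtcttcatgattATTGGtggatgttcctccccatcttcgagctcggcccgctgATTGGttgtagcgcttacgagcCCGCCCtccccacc

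The Pik3r1 window was 76.4% G or C and held 4 GC boxes and 1 CCAAT, and the Inpp5d window was 54.4% G or C and held 1 PU.1 site, 20 bases before the start. The window of the upstream Akt1 start was 52.0% G or C and held 1 FOXO site on the opposite strand, whereas that of its second start (chr12:112674277-112674526) was 78.4% G or C and held 4 GC boxes. The Mtor window held 1 ETS site, 4 CCAAT and 2 GC boxes. Over 32851 mouse promoters of the same length, 32.7% held a GC box, 33.8% a CCAAT, 2.44% the PU.1 site, 3.17% the FOXO site and 2.88% the ETS site. The windows of Tsc1 and Rptor held none of the 8 motifs. Pik3r1 has a second start at chr13:101692630, from which a shorter regulatory subunit is made, and Pik3cd has 3 starts. The deposited values give 1 level per gene, so starts were not told apart. On GRCm38, GENCODE places the genes at chr4:149649168-149702571 (Pik3cd), chr13:101680563-101768217 (Pik3r1), chr19:41272377-41385102 (Pik3ap1), chr12:112653821-112674884 (Akt1) and chr5:24802823-24842624 (Rheb) on the minus strand. Inpp5d (chr1:87620312-87720507), Tsc1 (chr2:28641228-28691167), Mtor (chr4:148448611-148557683) and Rptor (chr11:119602905-119899576) lie on the plus strand, and all 9 are protein coding. Of the 9 genes, 8 share no exon with another annotated gene, and Rptor shares 84 exon bases with the antisense gene Rptoros, whose reads cannot be told apart without the strand of the counting, which is not given in the sources used here.

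The cells carried B cell transcripts on both days. The 6 B cell markers (among them Cd79a, Ms4a1 and Pax5) summed to between 4183 and 4612 FPKM on day 0 and between 2182 and 2271 FPKM on day 3, and all 6 were lower in every day 3 library. Transcripts of other cells were present on day 0. The 6 myeloid markers summed to between 997 and 1766 FPKM on day 0 and between 14.9 and 25.4 FPKM on day 3, the 4 erythroid and platelet markers to between 85.5 and 158 FPKM and between 2.28 and 4.05 FPKM, and the 6 T and NK markers to between 47.1 and 57.1 FPKM and between 5.81 and 7.67 FPKM, with Hbb-bs at 0 in all day 3 libraries. All 6 myeloid and all 6 T and NK markers were lower in every day 3 library, and 3 of the 4 erythroid and platelet markers were. The exception was the platelet marker Pf4, at 0.72 to 4.83 FPKM on day 0 and 2.05 to 3.79 FPKM on day 3, which made up most of the day 3 sum. The highest myeloid sum on day 0 was in replicate 1 of Mct1f/fMb1Cre, which was also the only day 0 library with the Y-linked transcript Ddx3y (31.1 FPKM, against at most 0.24 in the other 3), whereas all 5 day 3 libraries had it (14.7 to 16.9 FPKM). In Mb1Cre the day and the presence of Ddx3y therefore cannot be told apart. Several of the 9 genes, among them Inpp5d and Pik3cd, are also used by myeloid cells, and the part of these cells in the day 0 levels was not tested. In bulk RNA, fewer cells of a type and less RNA per cell cannot be told apart. The targeted gene Slc16a1 was at 22.6 and 23.0 FPKM in Mb1Cre and 10.8, 9.81 and 9.50 FPKM in Mct1f/fMb1Cre on day 3 (log2 difference -1.11, limma adjusted p = 9.07e-06). On day 0 it was at 4.33 and 3.80 against 3.71 and 4.06 FPKM (-0.051, limma adjusted p = 0.844), so it did not separate the genotypes there.

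All 9 transcripts were detected in every library. On day 0 Inpp5d, which encodes the PIP3 phosphatase SHIP-1, had the highest level of the 9 in both genotypes (105.9 FPKM in Mb1Cre and 113.8 FPKM in Mct1f/fMb1Cre, means of n = 2). It was followed by Pik3cd and Pik3ap1, whose ranges overlapped, then by Akt1, Rheb and Pik3r1, each apart from the next. Mtor, Tsc1 and Rptor were lowest, at means between 8.10 and 10.4 FPKM, and neighbours among them overlapped except for Mtor and Tsc1 in Mct1f/fMb1Cre. On day 3 Pik3ap1 was highest and Akt1 next in both genotypes. Pik3cd and Inpp5d overlapped in Mb1Cre on day 3, whereas Inpp5d lay above Pik3cd in Mct1f/fMb1Cre. Below them the order on day 3 was Rheb, Mtor, Rptor, Pik3r1 and Tsc1 in both genotypes, so that Pik3r1 went from the sixth to the eighth place. Set against all tested genes, Pik3cd, Pik3ap1, Inpp5d and Akt1 lay above between 85.0% and 94.8% of them in the 4 groups, while Mtor, Tsc1 and Rptor lay above between 28.7% and 47.5%. Pik3r1 lay above 62.7% and 62.5% on day 0 and above 30.7% and 32.7% on day 3, in Mb1Cre and Mct1f/fMb1Cre.

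**Figure D1:**
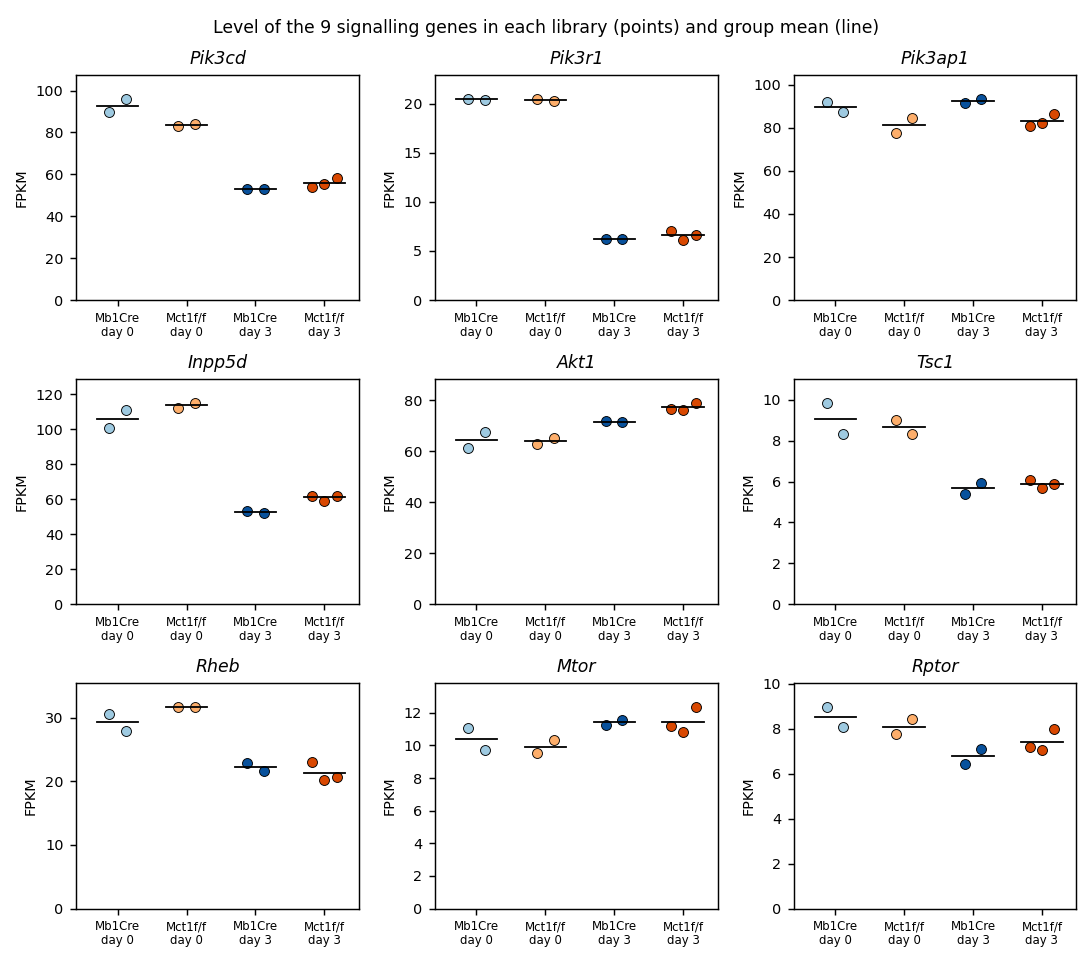
FPKM of the 9 genes in each of the 9 libraries (points) with the group mean (line), each panel starting at 0, for Mb1Cre and Mct1f/fMb1Cre (Mct1f/f on the axis) on day 0 and day 3. Pik3r1 lies between 20.3 and 20.5 FPKM on day 0 and between 6.10 and 7.04 FPKM on day 3, whereas Pik3ap1 overlaps between the days.

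With activation the transcripts of both PI3K subunits among the 9 and of the opposing phosphatase SHIP-1 fell in both genotypes. Those of the adaptor, AKT1, the mTOR kinase and Raptor were not called. Of the 9 transcripts, 4 were called lower on day 3 in Mb1Cre (Pik3cd, Pik3r1, Inpp5d and Tsc1), where 33.0% of all tested genes were called lower and 24.8% higher, and 0 were called higher. In Mct1f/fMb1Cre 4 were called lower (Pik3cd, Pik3r1, Inpp5d and Rheb), where 33.2% of all tested genes were called lower and 23.4% higher, and again 0 were called higher. With 9 genes these counts are near the background share and say nothing particular of the 9. In each genotype 7 of the 9 passed the adjusted p alone. The median log2 fold change of all tested genes was -0.12 in Mb1Cre and -0.14 in Mct1f/fMb1Cre, and that of the 9 was -0.38 and -0.49.

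Pik3r1 encodes p85α, the regulatory subunit that stabilizes the catalytic subunit and holds it inactive until it binds a phosphorylated receptor. Its level on day 0 was 20.5 and 20.3 FPKM in Mb1Cre and 20.5 and 20.3 FPKM in Mct1f/fMb1Cre. On day 3 it was 6.24 and 6.21 FPKM in Mb1Cre and 7.04, 6.10 and 6.65 FPKM in Mct1f/fMb1Cre. All day 3 libraries lay below all day 0 libraries, with the 4 day 0 values between 20.29 and 20.49 FPKM. The log2 fold change was -1.57 (SE 0.0642, limma adjusted p = 1.22e-09) in Mb1Cre and -1.49 (SE 0.0586, limma adjusted p = 7.91e-10) in Mct1f/fMb1Cre, the largest of the 9 in both, and on the FPKM + 1 scale 0.337 and 0.355 of the day 0 level remained.

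Pik3cd encodes p110δ, the catalytic subunit. It was at 89.5 and 96.1 FPKM in Mb1Cre and at 82.9 and 84.2 FPKM in Mct1f/fMb1Cre on day 0. On day 3 it was at 53.2 and 52.8 FPKM in Mb1Cre and at 54.1, 55.6 and 58.1 FPKM in Mct1f/fMb1Cre. The days did not overlap, and the genotypes lay in opposite order on the 2 days, with Mb1Cre higher on day 0 and Mct1f/fMb1Cre higher on day 3. Pik3cd had a log2 fold change of -0.80 (SE 0.0492, limma adjusted p = 3.89e-08) in Mb1Cre and -0.57 (SE 0.0450, limma adjusted p = 2.90e-07) in Mct1f/fMb1Cre. With median-of-ratios scaling the latter was -0.43 and no longer past the fold limit.

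Inpp5d was at 100.7 and 111.2 FPKM in Mb1Cre and at 112.4 and 115.2 FPKM in Mct1f/fMb1Cre on day 0. On day 3 it was at 53.4 and 52.3 FPKM in Mb1Cre and at 62.2, 59.3 and 61.8 FPKM in Mct1f/fMb1Cre. Every day 3 library lay below every day 0 library, and the log2 fold change was -0.99 (SE 0.0518, limma adjusted p = 9.44e-09) in Mb1Cre and -0.89 (SE 0.0473, limma adjusted p = 9.93e-09) in Mct1f/fMb1Cre. Leaving out each library gave -1.06 to -0.92 in Mb1Cre and -0.90 to -0.86 in Mct1f/fMb1Cre.

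Pik3ap1 encodes BCAP, an adaptor that B cells use to bring PI3K to the membrane. It was at 91.9 and 87.2 FPKM in Mb1Cre and at 77.7 and 84.4 FPKM in Mct1f/fMb1Cre on day 0. On day 3 it was at 91.3 and 93.4 FPKM in Mb1Cre and at 80.8, 82.3 and 86.5 FPKM in Mct1f/fMb1Cre. The days overlapped in both genotypes, and the log2 fold change was 0.045 in Mb1Cre and 0.039 in Mct1f/fMb1Cre (95% intervals -0.072 to 0.16 and -0.068 to 0.15, limma adjusted p = 0.442 and 0.464). With a common total the sign turned, to -0.16 and -0.14, and with quantile normalization to -0.12 and -0.094.

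Akt1, which encodes the main AKT kinase of most cells, was at 61.2 and 67.5 FPKM in Mb1Cre and at 62.9 and 65.3 FPKM in Mct1f/fMb1Cre on day 0. On day 3 it was at 71.9 and 71.5 FPKM in Mb1Cre and at 76.7, 76.1 and 79.0 FPKM in Mct1f/fMb1Cre. All day 3 libraries lay above all day 0 libraries, but the log2 fold changes of 0.15 (SE 0.0509, limma adjusted p = 0.0147) in Mb1Cre and 0.27 (SE 0.0465, limma adjusted p = 2.42e-04) in Mct1f/fMb1Cre were under the fold limit. With a common total the value in Mb1Cre was -0.045.

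Below AKT, Tsc1 and Rheb, the genes around the mTORC1 switch, each passed the fold limit in 1 genotype with the values as deposited. Tsc1 encodes hamartin, which holds the TSC complex together. It was at 9.84 and 8.31 FPKM in Mb1Cre and at 9.02 and 8.32 FPKM in Mct1f/fMb1Cre on day 0, and at 5.40 and 5.93 FPKM and at 6.08, 5.67 and 5.87 FPKM on day 3. The days did not overlap. Tsc1 had a log2 fold change of -0.59 (SE 0.0836, limma adjusted p = 4.53e-05) in Mb1Cre and -0.49 (SE 0.0763, limma adjusted p = 9.49e-05) in Mct1f/fMb1Cre, on either side of the fold limit. Which side it fell on depended on the setting. In Mb1Cre it was not called without replicate 1 of day 0 (-0.48), with a pseudocount of 5 (-0.40), with median-of-ratios scaling (-0.48) or with quantile normalization (-0.39). In Mct1f/fMb1Cre it was called with a pseudocount of 0.1 (-0.55), with a common total (-0.65), and without replicate 2 of day 0 (-0.54) or replicate 1 of day 3 (-0.51).

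Rheb, the GTPase that the TSC complex turns off, was at 30.6 and 27.9 FPKM in Mb1Cre and at 31.6 and 31.6 FPKM in Mct1f/fMb1Cre on day 0. On day 3 it was at 22.8 and 21.6 FPKM in Mb1Cre and at 23.0, 20.2 and 20.7 FPKM in Mct1f/fMb1Cre. The days did not overlap. For Rheb it was -0.38 (SE 0.0672, limma adjusted p = 2.63e-04) in Mb1Cre, under the fold limit, and -0.55 (SE 0.0613, limma adjusted p = 5.91e-06) in Mct1f/fMb1Cre. With median-of-ratios scaling the latter was -0.41 and with a pseudocount of 5 -0.48, both under the limit, and with a common total Rheb was called in Mb1Cre too (-0.58).

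The 2 subunits of mTORC1 were not called. Mtor, the kinase, was at 11.0 and 9.70 FPKM in Mb1Cre and at 9.53 and 10.3 FPKM in Mct1f/fMb1Cre on day 0, and at 11.3 and 11.6 FPKM and at 11.2, 10.8 and 12.4 FPKM on day 3. Rptor, which encodes Raptor, the subunit that presents substrates to mTOR, was at 8.97 and 8.09 FPKM in Mb1Cre and at 7.78 and 8.42 FPKM in Mct1f/fMb1Cre on day 0, and at 6.45 and 7.11 FPKM and at 7.18, 7.07 and 7.99 FPKM on day 3. Within each genotype Mtor lay higher in all day 3 libraries than on day 0, and Rptor lay lower in Mb1Cre and overlapped in Mct1f/fMb1Cre. Mtor had a log2 fold change of 0.13 (limma adjusted p = 0.140) and 0.19 (limma adjusted p = 0.0280), and Rptor had one of -0.29 (limma adjusted p = 0.00554) and -0.11 (limma adjusted p = 0.167), in Mb1Cre and Mct1f/fMb1Cre. With a common total Mtor in Mb1Cre was at -0.056, and with median-of-ratios scaling and quantile normalization Rptor in Mct1f/fMb1Cre was at 0.012 and 0.13.

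**Figure D2:**
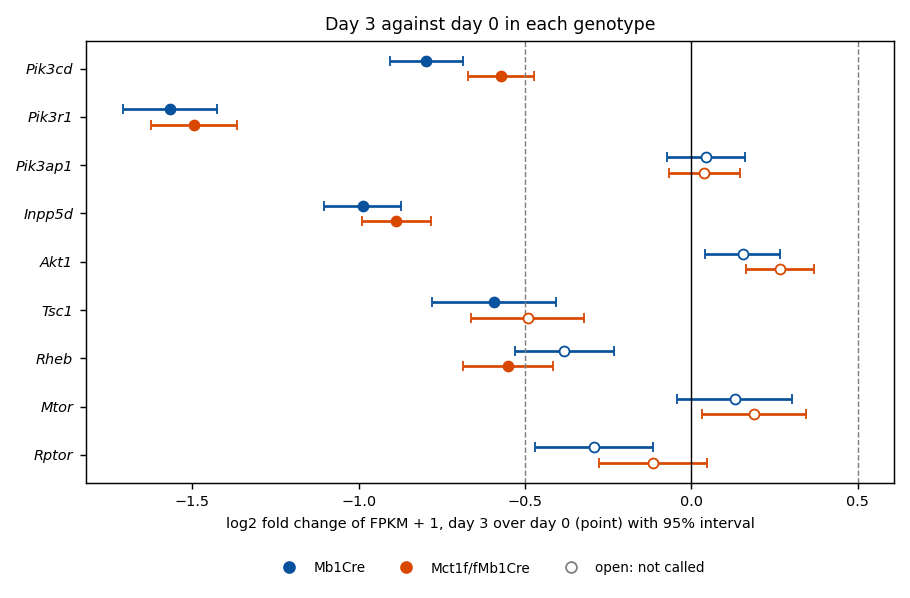
The log2 fold change of FPKM + 1 on day 3 over day 0 (point) with its 95% interval (bar) for the 9 genes in Mb1Cre (blue) and Mct1f/fMb1Cre (orange); filled points were called, open points were not, and dashed lines mark the fold limit of 0.5. Pik3r1 is farthest to the left in both genotypes, and Pik3ap1, Akt1 and Mtor lie to the right of 0.

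Between the days the libraries of 8 of the 9 genes in Mb1Cre and 7 of the 9 in Mct1f/fMb1Cre did not overlap. Over all tested genes the same held for 91.9% and 89.8%. The scaling of the libraries bears on these directions, since the median change of all tested genes was -0.31 and -0.30 after scaling to a common total, -0.012 and -0.011 after median-of-ratios scaling, and 0.016 and 0.028 after quantile normalization. Of the genes called in Mb1Cre 42.9% were higher on day 3 as deposited, against 32.0%, 50.2% and 51.3% with these scalings, and in Mct1f/fMb1Cre 41.4% against 31.7%, 50.0% and 51.7%. Pik3r1, Pik3cd, Inpp5d, Tsc1 and Rheb were lower on day 3 under every scaling. In Mct1f/fMb1Cre, replicate 1 of day 0 stood apart from the other day 0 libraries in Ddx3y and in its myeloid sum. Without it the log2 fold changes were -1.49 for Pik3r1, -0.90 for Inpp5d, -0.58 for Pik3cd, -0.55 for Rheb and -0.44 for Tsc1. Without replicate 2 they were -1.50, -0.87, -0.56, -0.55 and -0.54. In both the remaining day 0 library was assumed to vary like the other groups, and the part of Ddx3y and of the myeloid cells was not tested.

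The catalytic subunits of PI3K did not change evenly. Pik3cd was 65.1% ± 1.51 (SD, n = 4) of the summed FPKM of the 4 class I catalytic subunits on day 0 and 78.1% ± 1.42 (SD, n = 5) on day 3, with no overlap (63.3% to 67.0% against 75.8% to 79.5%). The difference of 13.0 points had an exact two-sided permutation p of 0.00794, the smallest that 5 against 4 libraries can give (0.0106 adjusted over the 4 shares and ratios reported). The share of p110γ (Pik3cg) went from 17.8% to 5.20%, and that of p110β (Pik3cb) from 3.70% to 0.729%, while that of p110α (Pik3ca) went from 13.4% to 16.0%. All 3 of these other subunits were called lower in both genotypes, with log2 fold changes of -0.70, -1.93 and -2.23 for Pik3ca, Pik3cb and Pik3cg in Mb1Cre, so Pik3cd gained share while its own level fell. Pik3cg is the catalytic subunit known from myeloid cells and T cells, whose markers were also lower on day 3, and their part in this shift was not tested. In Mct1f/fMb1Cre the log2 fold change of Pik3ca was -0.60, and its call was lost in 4 of 13 settings other than leaving out a library. Pik3cb lay between 0.46 and 0.58 FPKM on day 3. Over such settings its log2 fold change in Mb1Cre ranged from -3.01 to -0.82.

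The ratio of Pik3r1 to Pik3cd was lower on day 3 in all libraries. The other regulatory subunits did not all move alike. Pik3r2 lay between 12.8 and 14.5 FPKM over the 9 libraries and was not called with activation. Pik3r5 and Pik3r6 were called lower, with log2 fold changes of -1.26 and -0.71 in Mb1Cre and -1.43 and -0.86 in Mct1f/fMb1Cre. The log2 ratio of Pik3r1 to Pik3cd went from -2.06 ± 0.0967 (SD, n = 4) on day 0 to -2.90 ± 0.0814 (SD, n = 5) on day 3, a difference of -0.85. The log2 ratio of Rptor to Rictor, the subunits that define mTORC1 and mTORC2, went from -0.40 ± 0.0937 (SD, n = 4) to 0.56 ± 0.101 (SD, n = 5), a difference of 0.96. Both had an exact two-sided permutation p of 0.00794 (0.0106 adjusted), again the smallest that 5 against 4 libraries can give. Most single tested genes did not overlap between the days either (91.9% in Mb1Cre and 89.8% in Mct1f/fMb1Cre). How often other ratios or shares reach this p was not tested. Rictor was called lower in both genotypes, at 10.8 to 11.6 FPKM on day 0 and 4.10 to 5.03 FPKM on day 3 (log2 fold change -1.27 and -1.08), whereas Rptor was not called. Tsc1 and Rheb had a log2 ratio of -1.67 on day 0 and -1.74 on day 3 and overlapping ranges (difference -0.065, exact permutation p = 0.389). The genotypes moved in opposite directions, from -1.59 to -1.80 in Mb1Cre and from -1.75 to -1.70 in Mct1f/fMb1Cre.

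**Figure D3:**
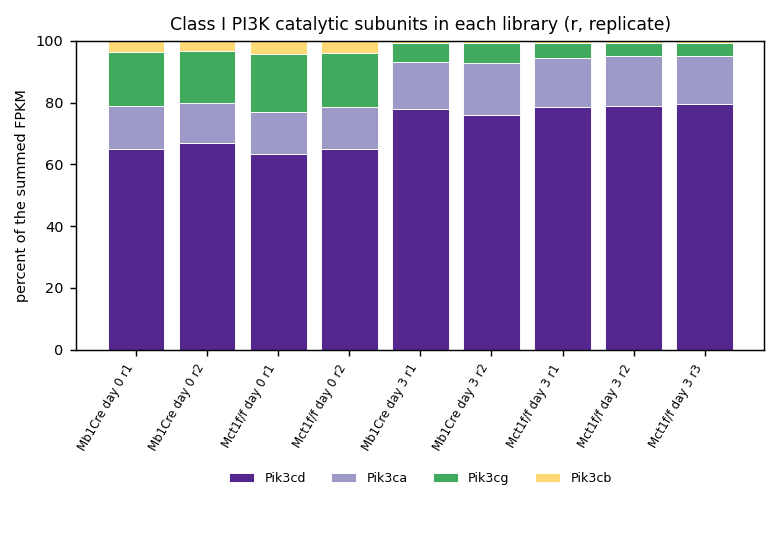
Percent of the summed FPKM taken by each class I PI3K catalytic subunit in each of the 9 libraries, as stacked bars from 0 to 100; r is the replicate and Mct1f/f stands for Mct1f/fMb1Cre. Pik3cd takes a larger share in all 5 day 3 libraries (75.8% to 79.5%) than in any of the 4 day 0 libraries (63.3% to 67.0%).

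None of the 9 transcripts was called between the genotypes. On day 3, 0 of the 9 were called, where 2.42% of all tested genes were called. With the adjusted p alone 1 of 9 passed (Inpp5d), where 15.2% of all tested genes did, and 3 had an unadjusted p under 0.05. No 95% interval of the 9 reached a log2 difference of 0.5 in size, the widest bounds being -0.26 and 0.31.

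Inpp5d was higher in Mct1f/fMb1Cre on day 3 by 0.21 on the log2 scale (SE 0.0473, 95% interval 0.10 to 0.31, limma adjusted p = 0.0152), a ratio of 1.15, and all 3 Mct1f/fMb1Cre libraries lay above both Mb1Cre libraries. The adjusted p rose to 0.0756 with the replicate number as a block, to 0.0772 and 0.107 without replicate 1 or 2 of Mb1Cre on day 3, and to 0.0541 without replicate 3 of Mct1f/fMb1Cre on day 3, with the difference between 0.19 and 0.23 throughout. The summed myeloid markers were also higher in Mct1f/fMb1Cre on day 3 (22.2 to 25.4 FPKM against 14.9 to 16.7 FPKM). Most of this sum was Lyz2 (16.8 to 20.4 FPKM against 10.0 to 11.5 FPKM), and the markers were split. Lyz2 and Adgre1 were called higher (log2 difference 0.71 and 0.68). Csf1r and Itgam lay higher (0.27 and 0.36) and S100a8 and S100a9 lower (-0.32 and -0.82), all without a call. The part of myeloid cells was not tested. Pik3ap1 was lower by -0.15 (95% interval -0.26 to -0.042, limma adjusted p = 0.0643) and Akt1 higher by 0.11 (95% interval 0.0035 to 0.21, limma adjusted p = 0.158). For Pik3cd the difference was 0.076 (95% interval -0.023 to 0.18), and for Pik3r1 0.070 (-0.059 to 0.20). For Mtor it was 0.0015 (-0.16 to 0.16), for Rptor 0.11 (-0.050 to 0.28), for Tsc1 0.045 (-0.12 to 0.21) and for Rheb -0.059 (-0.19 to 0.077). The libraries of the genotypes did not overlap on day 3 for 4 of the 9 (Pik3cd, Pik3ap1, Inpp5d and Akt1), against 47.1% of all tested genes.

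On day 0, where the targeted gene did not separate the genotypes, 0 of the 9 were called with or without the fold limit, and 2 had an unadjusted p under 0.05. Over all tested genes 0.277% were called and 0.416% passed the adjusted p alone. The values with an unadjusted p under 0.05 were those of Pik3cd, lower in Mct1f/fMb1Cre by -0.15 (95% interval -0.26 to -0.040, limma adjusted p = 0.290), and Pik3ap1, lower by -0.14 (95% interval -0.26 to -0.026, limma adjusted p = 0.343). Pik3ap1 thus had close to the same difference on both days. The libraries did not overlap for 4 of the 9 (Pik3cd, Pik3ap1, Inpp5d and Rheb), against 38.4% of all tested genes. One of the Mct1f/fMb1Cre libraries and neither Mb1Cre library of day 0 had Ddx3y, and the part of this in the result was not tested.

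**Figure D4:**
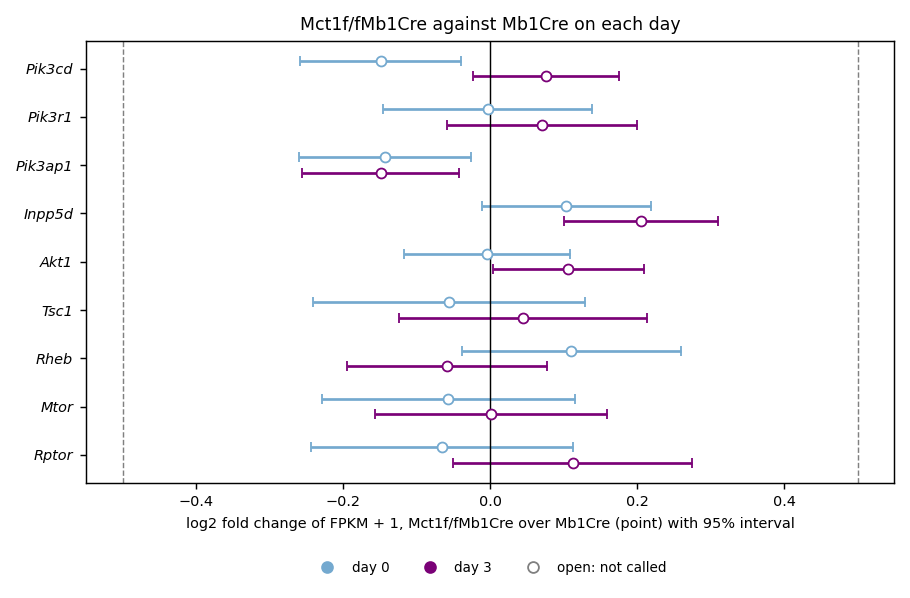
The log2 fold change of FPKM + 1 in Mct1f/fMb1Cre over Mb1Cre (point) with its 95% interval (bar) for the 9 genes on day 0 (light blue) and day 3 (purple); all points are open because none was called, and dashed lines mark the fold limit of 0.5. Inpp5d on day 3 is farthest from 0, at 0.21, and Pik3cd changes side between the days.

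The test of whether the change with activation differed between the genotypes called 0 of the 9, where 3.23% of all tested genes were called and 9.42% passed the adjusted p alone. None of the 9 passed it here, and 1 had an unadjusted p under 0.05. That was Pik3cd, whose change with activation was higher in Mct1f/fMb1Cre by 0.22 (SE 0.0667, 95% interval 0.077 to 0.37, limma adjusted p = 0.0610). Over the other settings the adjusted p ranged from 0.0402 (quantile normalization) to 0.144 (replicate block), and leaving out each library from 0.0408 (without replicate 1 of Mb1Cre on day 0) to 0.1601 (without replicate 2 of it). For the other 8 the limma adjusted p was at least 0.275.

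The rest of the pathway was taken from 13 lists of 87 genes by role, of which 79 were tested. In Mb1Cre 42 were called lower and 10 higher on day 3, with a median log2 fold change of -0.62, and in Mct1f/fMb1Cre 41 were called lower and 11 higher, with a median of -0.59. Over all tested genes 33.0% and 33.2% were called lower and 24.8% and 23.4% higher, with medians of -0.12 and -0.14, and the counts by role below are to be read against these shares. Upstream, 3 of 3 catalytic subunits, 3 of 4 tested genes of the regulatory list and 3 of 4 lipid phosphatases were called lower in each genotype. Those of the regulatory list were Pik3r5, Pik3r6 and Pik3ip1. The regulatory subunit Pik3r2 was not called (log2 fold change -0.063 in Mb1Cre and 0.082 in Mct1f/fMb1Cre). Pik3ip1, which encodes an inhibitor of PI3K at the membrane, went from between 36.5 and 52.8 FPKM to between 8.99 and 10.7 FPKM (log2 fold change -2.12 and -2.03 in Mb1Cre and Mct1f/fMb1Cre).

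Akt2, a second AKT kinase, lay between 45.28 and 48.95 FPKM on day 0 and between 38.9 and 43.1 FPKM on day 3 (log2 fold change -0.30 and -0.13, not called). Among the factors under AKT, 4 of 5 genes of the FOXO and GSK3 list were called lower in each genotype, with Foxo1 between 63.3 and 67.9 FPKM on day 0 and between 19.9 and 23.9 FPKM on day 3 (log2 fold change -1.47 and -1.56). Tsc2, the partner of Tsc1 that carries the GTPase-activating function, went from between 15.4 and 16.7 FPKM to between 11.0 and 11.5 FPKM (-0.54, called, and -0.43, not called). Of the 6 tested subunits of the mTOR complexes beside Mtor and Rptor, 3 were called lower and 0 higher in each genotype.

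The inputs to mTORC1 from nutrients moved both ways. Of 14 tested genes of the amino acid sensors and GATOR complexes, 4 were called higher and 5 lower in Mb1Cre, and 5 and 4 in Mct1f/fMb1Cre. Sesn2, a leucine sensor that restrains mTORC1 and is also a stress gene, went from between 4.90 and 5.53 FPKM to between 19.6 and 30.9 FPKM (log2 fold change 2.30 and 1.94), whereas its relative Sesn1, a p53 and FOXO target, went from between 69.8 and 94.9 FPKM to between 8.31 and 10.3 FPKM (-3.11 and -2.94). Wdr59, a subunit of GATOR2, went from between 4.09 and 4.58 FPKM to between 21.6 and 25.9 FPKM (2.15 and 2.31). The RAG GTPases and Ragulator had 3 of 9 tested genes called lower and 0 higher in each genotype, and the AMPK and stress inputs 5 of 7 lower and 0 higher. One of these, Ddit4, varied between 41.2 and 103.8 FPKM among the day 0 libraries, and its call in Mct1f/fMb1Cre (-0.64, limma adjusted p = 0.0345) became -0.083 without replicate 1 of day 0.

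Of 9 tested mTORC1 effectors 3 were called higher and 2 lower in each genotype. Eif4ebp1, the translation repressor that mTORC1 phosphorylates, went from between 37.9 and 38.6 FPKM to between 126 and 165 FPKM (log2 fold change 2.03 and 1.83). Pdcd4, a further translation repressor, went from between 121 and 147 FPKM to between 9.58 and 11.8 FPKM (-3.49 and -3.65).

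**Figure D5:**
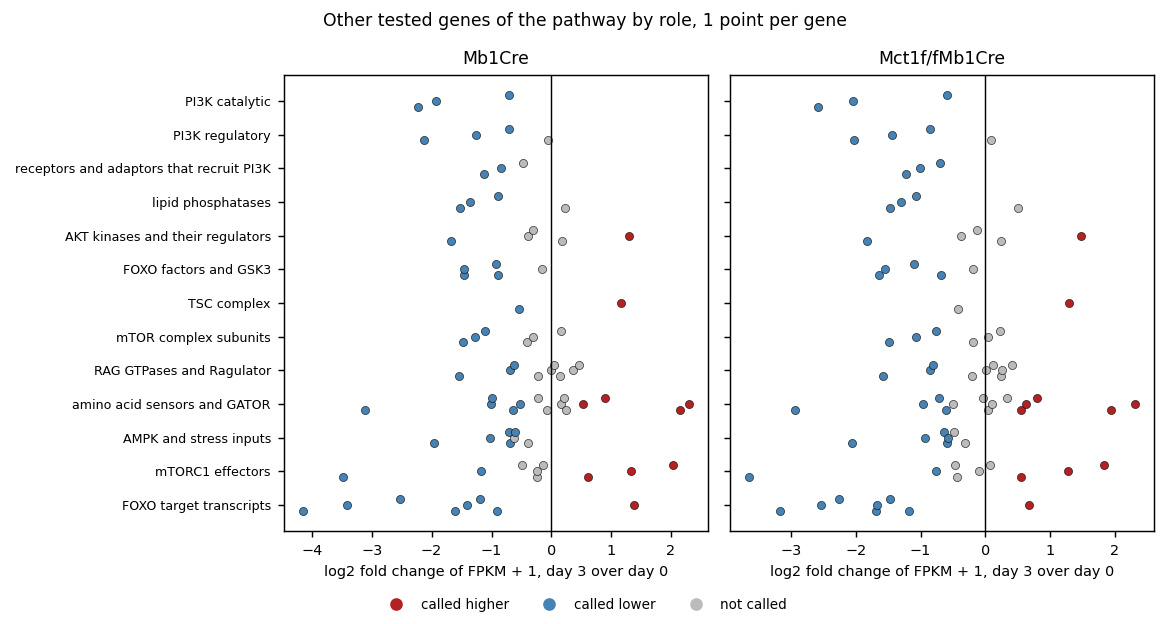
The log2 fold change of FPKM + 1 on day 3 over day 0 for each of the 79 other tested genes of the pathway (points), by role, in Mb1Cre (left) and Mct1f/fMb1Cre (right), coloured by call. The catalytic and regulatory PI3K subunits hold no gene called higher, and the amino acid sensors hold genes called in both directions.

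Between the genotypes on day 3, 4 of the 79 genes were called, and all 4 were of the 8 transcripts listed as targets of FOXO factors, where 2.42% of all tested genes were called. The lists were chosen with earlier results of these data known, so this count is no test of FOXO targets. Klf2, a factor of lymphocyte quiescence, was at 47.5 and 48.0 FPKM in Mb1Cre and at 84.3, 89.8 and 89.9 FPKM in Mct1f/fMb1Cre (log2 difference 0.87, SE 0.0730, limma adjusted p = 4.15e-05). S1pr1, the receptor by which lymphocytes leave lymphoid organs, was at 6.37 and 5.68 FPKM in Mb1Cre and at 12.9, 11.8 and 11.6 FPKM in Mct1f/fMb1Cre (0.90, SE 0.0649, limma adjusted p = 1.60e-05). Both had fallen with activation, from between 423 and 579 FPKM and between 112 and 128 FPKM on day 0. The other 2 were lower in Mct1f/fMb1Cre. Ccr7, a chemokine receptor for the T cell zone, was at 58.1 and 61.0 FPKM in Mb1Cre and at 28.1, 29.7 and 31.4 FPKM in Mct1f/fMb1Cre (-0.98, SE 0.0567, limma adjusted p = 5.17e-06). Bcl2l11, which encodes the death factor BIM, was at 46.6 and 48.1 FPKM in Mb1Cre and at 31.1, 29.2 and 30.0 FPKM in Mct1f/fMb1Cre (-0.64, SE 0.0541, limma adjusted p = 4.32e-05). The list thus did not move one way, with 2 called higher, 2 lower and a median of -0.13, and Foxo1 itself was lower by -0.18 (limma adjusted p = 0.0252), under the fold limit. On day 0, 0 of the 79 were called or passed the adjusted p alone.

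For each of the 9 genes, the tested gene whose log2 level followed it most closely over the 9 libraries was found, as a description only, since most of the spread lies between the days. Pik3r1 was closest to Rnf41 (Pearson r = 1.000), Pik3cd to Cmtm7 (0.998), Inpp5d to Alox5ap (0.998), Tsc1 to Med1 (0.996), Akt1 to Sf3a2 (0.992) and Rheb to H2bc8 (0.991). The values were lower for Rptor with Fryl (0.959), Mtor with Kifap3 (0.948) and Pik3ap1 with H3f3b (0.925), the 3 genes with the smallest changes between the days beside Akt1.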

How the data were processed

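RNA sequencing was analysed from 9 libraries of splenic B cells, grouped by the sample labels. The deposited values are FPKM, made by the authors, to 2 decimals and with 1 row for each gene. The labels and the study's methods name the sequencing institute as the analyst and differ on the RNA extraction reagent, and the submitters' processing notes name Bowtie2 and the builds GRCm38 and mm10. Counting, strand and annotation are not given in the sources used here. FPKM depend on gene length and on all other transcripts of a library, and the depth behind each value is unknown.

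From the deposited FPKM, log2(FPKM + 1) was computed without further scaling and fitted with limma 3.58.1 in R 4.3.3 (1 mean per group over all 9 libraries, empirical Bayes with a trend, Benjamini-Hochberg over 10823 genes). Shares and ratios were compared by exact two-sided permutation tests of 5 day 3 against 4 day 0 libraries, both genotypes together. Figures were drawn with matplotlib 3.10.9 in Python 3.11.15. Loci and exons come from GENCODE and promoters from RefSeq, both on GRCm38.

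The 9 genes, the lists and the tests were chosen with earlier results of these data known. Values of some further pathway genes are not reported here. Genes named were the 9, 11 close partners, the tested genes of the regulatory list and Slc16a1. Up to 3 called pathway genes per direction and comparison with the largest change, and the gene most like each of the 9, were also named. The fits were repeated with a pseudocount of 0.1 or 5, without a filter or with one at 5 FPKM, after 3 other scalings, on the compared groups alone, with the replicate number as a block (as labelled and crossed), without the trend, with a fold limit of 1 or without one, and leaving out each library.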

Additional observations from a re-analysis of the deposited data

Results flagged for a closer look

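No interaction of genotype and day passed the adjusted p for the 9 genes, but it did for 5 of the pathway genes described and for the targeted gene (limma, adjusted over all tested genes). Klf2 and S1pr1 fell less with activation in Mct1f/fMb1Cre, by 1.16 (SE 0.108, adjusted p = 3.64e-04) and 0.98 (SE 0.0962, adjusted p = 4.24e-04) on the log2 scale. Ccr7 was lowered further, by -0.78 (SE 0.0841, adjusted p = 6.24e-04), and Bcl2l11 was raised less, by -0.69 (SE 0.0802, adjusted p = 9.36e-04). The targeted gene Slc16a1 was raised less, by -1.06 (SE 0.106, adjusted p = 4.24e-04). Under the fold limit, the difference was -0.36 for Pik3cg (SE 0.0890, adjusted p = 0.0325). Of the B cell markers named, Pax5 also passed the adjusted p, under the fold limit (0.25, SE 0.0659, adjusted p = 0.0426).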

How the results depend on the processing

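Calls of the 9 genes depended mainly on the fold limit and the scaling. With a log2 limit of 1 the count called with activation was 1 in each genotype (Pik3r1), and with no limit 7 in each, and 1 for the genotypes on day 3. Median-of-ratios scaling left 2 in Mct1f/fMb1Cre. Leaving out each library gave 3 to 4 in Mb1Cre, 4 to 5 in Mct1f/fMb1Cre, and 0 for the genotypes on either day and for the interaction. Deviations of libraries with the same replicate number showed no clear pairing (correlation between -0.12 and 0.064). In groups of 2 libraries these deviations mirror each other, so the check cannot exclude a pairing. With the replicate block the counts of 4, 4, 0, 0 and 0 were as without it, as they were with the numbers of the Mb1Cre day 3 libraries crossed. The adjusted p of Inpp5d on day 3 was 0.0756 with the replicate block and 0.0579 with it crossed. Within Mb1Cre and Mct1f/fMb1Cre alone, where the smallest exact p is 0.333 and 0.1, the share of Pik3cd moved by 10.8 and 14.8 points. The log2 ratio of Pik3r1 to Pik3cd moved by -0.77 and -0.92 and that of Rptor to Rictor by 0.98 and 0.96. That of Tsc1 to Rheb moved by -0.21 in Mb1Cre and 0.059 in Mct1f/fMb1Cre.

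Signs turned only for values that were not called. With a common total, activation in Mb1Cre gave -0.16 for Pik3ap1, -0.045 for Akt1 and -0.056 for Mtor, Pik3ap1 in Mct1f/fMb1Cre was -0.14 and its interaction 0.018. Median-of-ratios scaling gave 0.012 for Rptor in Mct1f/fMb1Cre, 0.0019 for Pik3r1 and 0.00044 for Akt1 on day 0, and 0.0096 for the interaction of Pik3ap1. Quantile normalization gave -0.12 and -0.094 for Pik3ap1 in Mb1Cre and Mct1f/fMb1Cre, 0.13 for Rptor in Mct1f/fMb1Cre and 0.028 for the interaction of Pik3ap1. Both replicate blocks gave -0.050 for Mtor on day 3. Leaving out each library, day 0 values ranged from -0.0084 to 0.0024 for Pik3r1, -0.17 to 0.054 for Tsc1, -0.14 to 0.028 for Mtor, -0.13 to 0.00069 for Rptor and -0.074 to 0.064 for Akt1. Day 3 values ranged from -0.012 to 0.10 for Tsc1 and -0.050 to 0.037 for Mtor. The interaction ranged from -0.0087 to 0.21 for Tsc1, -0.027 to 0.14 for Mtor and -0.064 to 0.053 for Pik3ap1, and activation of Pik3ap1 in Mct1f/fMb1Cre from -0.020 to 0.097. The cause of these turns was not tested. Read depth is unknown, so counting error could not be separated from the spread between libraries.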
